A study of Mus musculus with 12 samples.

Results

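The cytotoxic granules of CD8+ T cells were followed through 10 genes taken by symbol from the deposited count table of 55291 gene symbols: the pore-forming protein gene Prf1, the granzyme genes Gzma, Gzmb, Gzmc, Gzmk and Gzmm, the granule proteins Srgn, Nkg7 and Ctsw, and the granzyme inhibitor Serpinb9. All 10 were found in the table and all 10 passed the filter on low counts in every comparison. RNA was sequenced in bulk after removal of ribosomal RNA, in 4 groups of 3 libraries. Every library was made from CD8+ T cells of male wild-type mice, taken from the spleen and the lymph nodes. Naive cells were lysed fresh at day 0. The remaining cells were stimulated with plate-bound antibody to CD3 and soluble antibody to CD28 and then grown in recombinant mouse interleukin 2. From day 3 to day 4 they were held for 24 h in liquid media, in a bovine collagen gel (labelled Nutragen) or in a rat tail collagen gel (labelled RatCol), both gels at 2 mg/mL. Gel and media cells thus share the same activation, and no group of activated cells was taken at day 3. The labels give n = 3 per group and do not say whether libraries came from separate mice, so p-values measure the spread between these libraries.

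A killer T cell releases the content of its granules at the contact with a target cell. Perforin forms pores in the target membrane, and granzymes, a family of serine proteases, enter the target and cleave proteins there, which leads to cell death. Granzymes are held in the granule on the proteoglycan serglycin, the product of Srgn. Nkg7 encodes a membrane protein of the granules and Ctsw the protease cathepsin W, which is expressed mainly in cytotoxic lymphocytes. Serpinb9 encodes an inhibitor of granzyme B that protects the killer cell from its own protease. In mouse CD8+ T cells granzyme B transcripts are known to rise after activation.

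Each level is in CPM, which scales the counts of a library to a common total with TMM factors, and group levels are the mean ± SD of n = 3 libraries. Where genes are compared with each other, levels are divided by exon length and given as FPKM. A change is a log2 difference with its standard error, and a gene passed where the adjusted p of the edgeR quasi-likelihood test, adjusted over all genes tested, was under 0.05. Library totals ran from 28483064 to 53138362 counts. Nuclear ribosomal RNA genes took 4.45% to 4.72% of counts in media, 3.96% to 5.67% in naive cells, 5.50% to 11.9% in bovine collagen and 5.03% to 13.2% in rat tail collagen, with the 3 highest shares in bovine collagen 2 and rat tail collagen 1 and 3. The defining CD8 T cell markers Cd3d, Cd3e, Cd3g, Cd8a, Cd8b1, Trac and Trbc2 were expressed in every group, with summed levels of 2432 to 2714 CPM in rat tail collagen and 3391 to 4889 CPM elsewhere. Of these 7, Cd3d, Cd3g, Trac and Trbc2 were lower in rat tail collagen than in media. The nuclear RNA Malat1 took 1.11% to 1.47% of counts in rat tail collagen, 0.179% to 0.295% in media and bovine collagen and 0.678% to 0.857% in naive cells, and its part in the differences was not tested. The 9 markers of natural killer and innate-like T cells summed to 47.9 to 95.1 CPM in naive libraries, 18.3 to 28.4 in media, 18.6 to 26.1 in bovine collagen and 42.2 to 73.8 in rat tail collagen, and none of the 9 was at 0 in any group. Klrb1b was the largest of them in rat tail collagen, at 29.05 CPM against 1.20 CPM in naive cells. Ncr1, Klra8 and Klra4 were at 0.0666, 0.115 and 0.0618 CPM there, against 7.87, 5.06 and 3.17 CPM in naive cells. Trdc, Tyrobp and Fcer1g were also lower there than in naive cells, and Klrb1c and Klre1 did not pass. In bulk RNA, fewer cells of a type and less RNA per cell cannot be told apart.

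The granzyme genes lie in separate places of the genome (GRCm38). Gzmb (chromosome 14, 56258838 to 56262260, minus strand) and Gzmc (56231441 to 56234656, minus strand) lie in a cluster that also holds Gzmd, Gzme, Gzmf, Gzmg and Gzmn. Gzma (chromosome 13, 113093825 to 113100981) and Gzmk (113171608 to 113225908) lie close together, and Gzmm (79689020 to 79695261) is on chromosome 10, as are Prf1 (61297833 to 61304680) and Srgn (62493833 to 62527451). Nkg7 is on chromosome 7 (43437073 to 43438249), Ctsw on chromosome 19 (5465043 to 5468507) and Serpinb9 on chromosome 13 (33003250 to 33017957). Of the 50-base windows of each gene's longest transcript, 4.14% of Gzmc and 0.38% of Serpinb9 occurred in transcripts of another gene, and 0 windows did so in the other 8 genes. Reads of Gzmc can therefore be shared in part with Gzmd, Gzme and Gzmg.

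The 250 bases before the RefSeq start (GRCm38.p6) are shown for Gzmb and Gzmc, both highest in rat tail collagen, for Gzma, which was lowest there, and for Prf1, which was highest in naive cells. Capitals mark matches, on either strand, to the motifs searched: RUNX (TGTGGT), AP-1 (TGANTCA), CRE (TGACGTCA), T-box (AGGTGTNA) and STAT (TTCNNNGAA).
Gzmb, chr14:56262335-56262584, minus strand: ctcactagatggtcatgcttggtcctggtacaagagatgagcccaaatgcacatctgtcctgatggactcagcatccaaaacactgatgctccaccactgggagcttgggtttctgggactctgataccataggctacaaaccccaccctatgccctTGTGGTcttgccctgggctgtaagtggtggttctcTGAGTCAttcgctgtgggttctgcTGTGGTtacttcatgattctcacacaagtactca
Gzmc, chr14:56234658-56234907, minus strand: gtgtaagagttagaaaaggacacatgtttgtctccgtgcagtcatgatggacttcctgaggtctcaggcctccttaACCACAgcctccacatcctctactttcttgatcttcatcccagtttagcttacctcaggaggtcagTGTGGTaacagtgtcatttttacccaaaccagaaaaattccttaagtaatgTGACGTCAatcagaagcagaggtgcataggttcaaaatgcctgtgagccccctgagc
Gzma, chr13:113100982-113101231, minus strand: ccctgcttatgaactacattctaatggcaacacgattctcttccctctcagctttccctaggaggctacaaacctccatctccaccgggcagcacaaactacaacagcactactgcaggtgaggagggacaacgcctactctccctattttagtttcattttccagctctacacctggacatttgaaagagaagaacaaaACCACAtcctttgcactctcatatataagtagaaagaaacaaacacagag
Prf1, chr10:61297586-61297835, plus strand: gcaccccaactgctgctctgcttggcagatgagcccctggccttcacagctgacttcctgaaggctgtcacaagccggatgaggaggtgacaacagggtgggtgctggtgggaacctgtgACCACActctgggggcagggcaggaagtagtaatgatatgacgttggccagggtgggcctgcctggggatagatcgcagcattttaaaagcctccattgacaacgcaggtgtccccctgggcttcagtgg

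Gzmb held the RUNX letters from 93 to 88 and from 34 to 29 bases before its start and an AP-1 match from 58 to 52 bases before it. Gzmc held RUNX letters at 108 to 103 and 174 to 169 bases and a CRE match at 57 to 50 bases. In Gzma and Prf1 the only match was to the RUNX letters, at 50 to 45 and 130 to 125 bases before the start. A window of this length held the RUNX letters in 14% of the 32851 promoters of the table, AP-1 in 6.75%, CRE in 1.55%, T-box in 2.68% and STAT in 7.02%. The table held a promoter for 9 of the 10 genes. Of those not shown, Gzmk and Serpinb9 held 0 matches, and Nkg7 held RUNX, T-box and STAT matches. Gzmm and Srgn each had 2 starts. At 1 start Gzmm held RUNX and STAT matches and Srgn a RUNX match, and at the other start each held 0. These matches describe letters in the sequence, and no binding was measured.

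**Figure D1:**
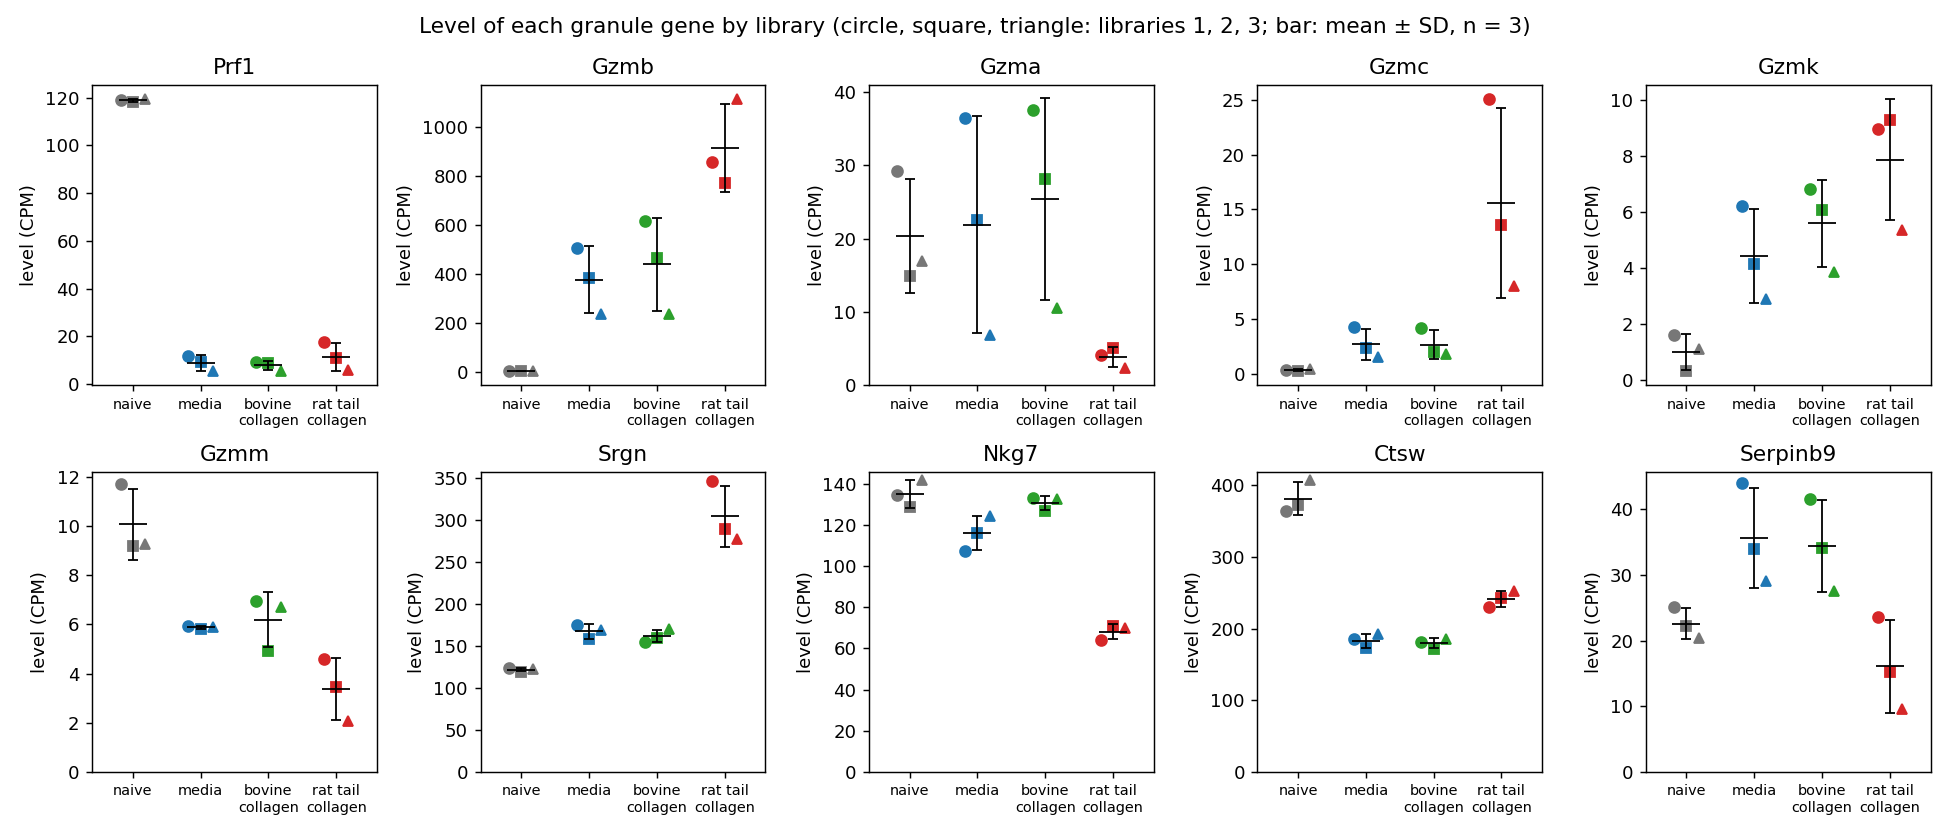
Level of the 10 granule genes in CPM (vertical axes, linear) in each of the 12 libraries by group, with mean ± SD of n = 3 in black. Prf1 falls from about 119 CPM in naive cells to under 18 CPM in every activated library, and Gzmb lies between 770.4 and 1114 CPM in rat tail collagen, above every other library.

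The members did not move as a block. Against naive cells, 5 of the 10 rose and 3 fell in media, where 60.8% of the 18610 genes tested passed (31.6% higher and 29.2% lower). Between rat tail collagen and media 5 rose and 4 fell, where 58.4% of 19392 genes passed (29.7% higher, 28.7% lower). None of the 10 passed between bovine collagen and media, where 0.0206% of genes did. Between rat tail and bovine collagen 4 rose and 4 fell, and 54.7% of all genes passed. Rat tail collagen against naive cells had 4 higher and 5 lower, and 71.9% of 19449 genes passed. The median log2 difference of the 10 genes was 0.35 in media against naive, 0.38 in rat tail collagen against media, 0.03 in bovine collagen against media, 0.46 in rat tail against bovine collagen and -0.57 in rat tail collagen against naive, and the median over all genes tested lay between -0.01 and 0.00 in each. Rat tail collagen against media and against bovine collagen share the rat tail libraries, and other pairs of comparisons share groups in the same way.

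Prf1, the gene of perforin, was the member that fell most with activation. It stood at 118.9, 118.3 and 119.6 CPM in naive libraries 1, 2 and 3 and at 11.9, 9.23 and 5.35 CPM in media. Bovine collagen had 9.15, 8.81 and 5.63 CPM, and rat tail collagen 17.7, 11.04 and 5.88 CPM. The naive libraries were far above all others, and the 3 activated groups overlapped. Media was 12.9-fold lower than naive cells (log2 -3.69 ± 0.25 SE, adjusted p = 6.32e-06) and rat tail collagen 10.3-fold lower (log2 -3.37 ± 0.38, adjusted p = 6.16e-04). Rat tail collagen did not pass against media (log2 0.37, 95% interval -0.52 to 1.27) or against bovine collagen (0.55, interval -0.37 to 1.47, adjusted p = 0.283). It passed against bovine collagen without rat tail collagen 3 (0.86, adjusted p = 0.0485). Natural killer markers moved in the same direction between naive cells and media: Ncr1, a receptor that marks natural killer cells, was at 11.9, 5.35 and 6.34 CPM in naive libraries and at 0.0764, 0 and 0.0214 CPM in media. Among naive libraries Ncr1 ranged from 5.35 to 11.9 CPM and Prf1 from 118.3 to 119.6 CPM. The part of natural killer cells in the Prf1 difference was not tested.

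Gzmb, the gene of granzyme B, rose with activation and again in rat tail collagen. Naive libraries held 6.56, 3.67 and 5.33 CPM, media 508, 385 and 237 CPM. In bovine collagen it was at 615, 465 and 237.5 CPM and in rat tail collagen at 856, 770.4 and 1114 CPM. Rat tail libraries lay above every other library, media and bovine collagen overlapped, and naive libraries were lowest. The rise from naive cells to media was 75.7-fold (log2 6.24 ± 0.37, adjusted p = 7.52e-06), and rat tail collagen was 176.5-fold above naive cells (7.46 ± 0.27, adjusted p = 2.28e-07). Rat tail collagen was 2.41-fold above media (log2 1.27 ± 0.37, adjusted p = 0.0183) and 2.07-fold above bovine collagen (1.05 ± 0.37, adjusted p = 0.0420). The calls were lost in several alternatives in which the difference stayed between 0.74 and 1.22. Against media it was 1.02 without media 3 (adjusted p = 0.0618), 1.11 when rat tail collagen 3 was left out (0.0515) and 1.22 with no filter on low counts (0.0736). Against bovine collagen it was 1.04 without media 1 (adjusted p = 0.0675), 1.09 without bovine collagen 2 (0.0789), 0.74 without bovine collagen 3 (0.0643), 1.09 and 0.88 when rat tail collagen 1 or 3 was left out (0.0643 and 0.112). With no filter on low counts it was 1.002 (adjusted p = 0.140) and with only the 6 libraries of the comparison 1.06 (0.0547). Without the 3 libraries of highest ribosomal RNA share it was 1.03 against media and 0.85 against bovine collagen. That fit leaves 1 rat tail library, which is assumed to vary like the libraries of the other groups (adjusted p = 0.160 and 0.296).

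Gzma, which encodes the tryptase granzyme A, had another pattern. Its levels were 29.2, 14.8 and 16.9 CPM in naive libraries and 36.5, 22.5 and 6.78 CPM in media. Bovine collagen had 37.6, 28.1 and 10.5 CPM, and rat tail collagen only 4.07, 5.04 and 2.29 CPM. The rat tail libraries were below all 9 others, and the other 3 groups overlapped. Rat tail collagen was 5.68-fold below media (log2 -2.51 ± 0.74, adjusted p = 0.0230), 6.58-fold below bovine collagen (-2.72 ± 0.75, adjusted p = 0.0182) and 5.24-fold below naive cells (-2.39 ± 0.37, adjusted p = 0.00132). Media did not pass against naive cells (log2 0.17, 95% interval -1.52 to 1.86). The spread within media was wide, with an SD of 14.9 CPM around a mean of 21.9 CPM. The call against media was lost without media 1 (-1.94, adjusted p = 0.0848), rat tail collagen 1 (-2.53, 0.0573) or rat tail collagen 3 (-2.25, 0.0662). Against bovine collagen it was lost without bovine collagen 1 (-2.32, adjusted p = 0.0675) or rat tail collagen 3 (-2.47, 0.0543). Among naive libraries Gzma was highest in library 1, where the natural killer marker Ncr1 was highest too. Summed markers of CD4 T, mast, neutrophil, myeloid, and platelet and red cells were also highest in library 1. Those of CD8 T cells, B cells and stroma were highest in library 3. The part of any of these cells in the naive level was not tested.

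Gzmc, which encodes granzyme C, a granzyme of late activated T cells, was low except in rat tail collagen. It was at 0.368, 0.236 and 0.434 CPM in naive libraries, 4.24, 2.38 and 1.52 CPM in media and 4.18, 1.98 and 1.86 CPM in bovine collagen. Rat tail libraries 1, 2 and 3 had 25.1, 13.6 and 8.06 CPM. Every rat tail library was above every other library, and media and bovine collagen overlapped. Rat tail collagen was 5.68-fold above media (log2 2.51 ± 0.51, adjusted p = 0.00264) and 5.74-fold above bovine collagen (2.52 ± 0.53, adjusted p = 0.00320). The rise over naive cells was 8.12-fold in media (3.02 ± 0.43, adjusted p = 2.53e-04) and 44.5-fold in rat tail collagen (5.48 ± 0.57, adjusted p = 1.79e-04).

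The other genes of the Gzmc cluster had few counts. Gzmd, Gzme, Gzmf, Gzmg and Gzmn had 0 counts in the 3 naive libraries, which allows a level of up to 0.0255 CPM over the group (3 counts, counting error only). Summed over 3 libraries, Gzmf had 40 counts in media, 60 in bovine collagen and 81 in rat tail collagen, and Gzme had 14, 4 and 27. Gzmd had 29 counts in media, 16 in bovine collagen and 6 in rat tail collagen. Of these 5 genes Gzmf alone passed the filter among activated cells, with a log2 difference of 1.16 in rat tail collagen against media that did not pass (adjusted p = 0.0687). Between 5.74% and 21.9% of the 50-base windows of these transcripts occur in another gene, so their separate values are uncertain.

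Gzmk and Gzmm, the granzymes K and M, differed from each other. Gzmk was at 1.601, 0.315 and 1.11 CPM in naive libraries, 6.21, 4.15 and 2.91 in media, 6.84, 6.07 and 3.87 in bovine collagen and 8.95, 9.30 and 5.37 in rat tail collagen. Naive libraries were lowest and the activated groups overlapped. Media was 4.57-fold above naive cells (log2 2.19 ± 0.47, adjusted p = 0.00294). Rat tail collagen passed against media (0.83 ± 0.29, adjusted p = 0.0302) and not against bovine collagen (0.50, interval -0.15 to 1.14, adjusted p = 0.178). The call of Gzmk against media was lost without media 2 (0.78, adjusted p = 0.0819), media 3 (0.59, 0.0970), rat tail collagen 1 (0.74, 0.0891) or rat tail collagen 2 (0.68, 0.115). It was also lost with all 12 libraries in a single fit (0.83, 0.0828) and with no filter on low counts (0.77, 0.126). Without the 3 libraries of highest ribosomal RNA share, which leaves 1 rat tail library, it was at 1.065. Gzmm was highest in naive cells, at 11.7, 9.21 and 9.28 CPM, followed by bovine collagen (6.97, 4.92 and 6.70) and media (5.92, 5.82 and 5.90), and lowest in rat tail collagen (4.61, 3.45 and 2.06). Media was 1.64-fold below naive cells (log2 -0.71 ± 0.13, adjusted p = 0.00134), and rat tail collagen was 1.75-fold below media (-0.81 ± 0.23, adjusted p = 0.0113) and 1.85-fold below bovine collagen (-0.89 ± 0.24, adjusted p = 0.00770). Media and bovine collagen overlapped in Gzmm.

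Per exon length, the makeup of the 5 granzymes turned over with activation. Of their summed FPKM, Gzma made up 62.8 ± 3.97% in naive cells, Gzmm 22.3 ± 3.78% and Gzmb 11.5 ± 1.49%. In media Gzmb made up 89.7 ± 2.11% and Gzma 6.73 ± 2.70%. Rat tail collagen had 95.4 ± 2.28% Gzmb, 2.75 ± 1.63% Gzmc and 0.602 ± 0.301% Gzma, and bovine collagen 89.4 ± 0.160% Gzmb and 7.05 ± 1.22% Gzma. The ratio of Gzmk to Gzma FPKM was 1.59, 1.34 and 1.70 in the rat tail libraries and between 0.0154 and 0.311 in the other 9. The ratio of Gzmb to Prf1 FPKM was 0.0993, 0.0559 and 0.0802 in naive libraries, 75.1 to 79.8 in media, 75.9 to 121 in bovine collagen and 87.2, 125.6 and 341 in rat tail collagen. The ratio in rat tail collagen 3 stood apart, since that library had the highest Gzmb and the lowest Prf1 of its group.

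**Figure D2:**
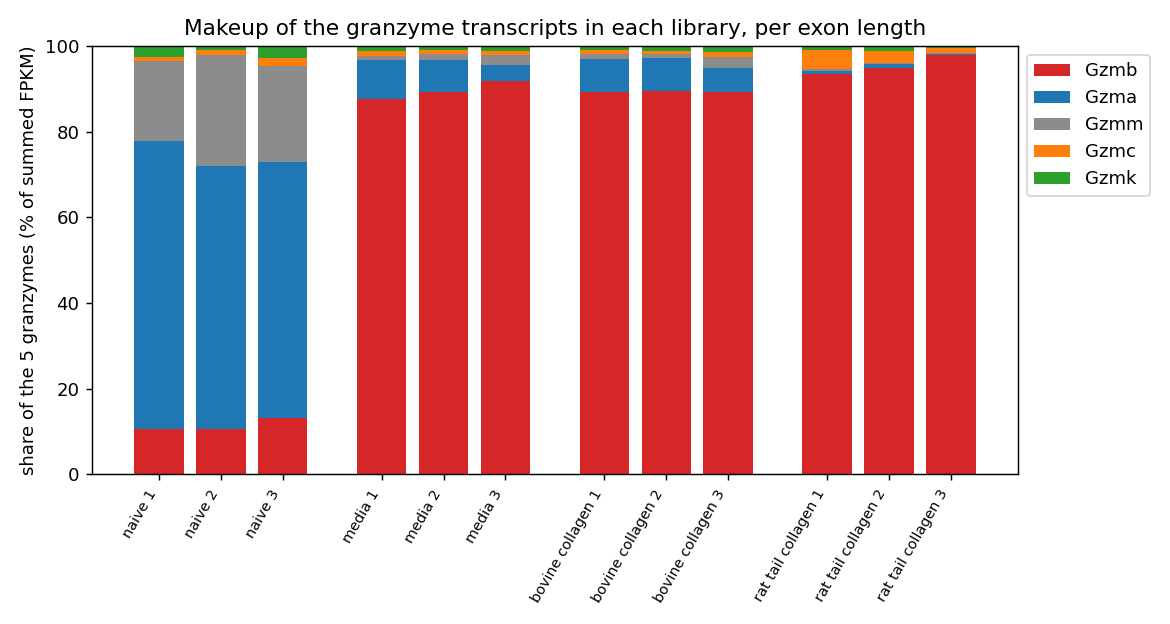
Share of each granzyme in the summed FPKM of Gzma, Gzmb, Gzmc, Gzmk and Gzmm (vertical axis, percent) in each library. Gzma is the largest part in the 3 naive libraries (59.8% to 67.3%), and Gzmb is the largest part in all activated libraries (87.7% to 97.9%).

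Of the granule proteins that are not granzymes, Srgn rose in rat tail collagen and Nkg7 fell. Srgn, the gene of serglycin, was at 123.7, 119.3 and 123.0 CPM in naive libraries, 175, 158 and 169.5 in media, 155, 160.0 and 170.4 in bovine collagen and 347, 289.5 and 278 in rat tail collagen. Rat tail libraries were highest and naive libraries lowest, without overlap, and media and bovine collagen overlapped. The difference was 1.81-fold against media (log2 0.85 ± 0.09, adjusted p = 1.01e-05), 1.87-fold against bovine collagen (0.90 ± 0.09, adjusted p = 7.77e-06) and 2.51-fold against naive cells (1.33 ± 0.09, adjusted p = 5.37e-07). Media was above naive cells by 0.52 ± 0.07 (adjusted p = 1.69e-04).

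Nkg7 had 134.7, 128.6 and 142.1 CPM in naive libraries, 107.6, 116.4 and 124.5 in media and 133.0, 126.7 and 132.5 in bovine collagen. In rat tail collagen it was at 64.0, 70.7 and 69.98 CPM, below all 9 other libraries. It was lower in rat tail collagen than in media by 1.71-fold (log2 -0.78 ± 0.08, adjusted p = 5.35e-06), than in bovine collagen by 1.93-fold (-0.95 ± 0.08, adjusted p = 1.47e-06) and than in naive cells by 1.97-fold (-0.98 ± 0.07, adjusted p = 7.47e-07). Bovine collagen libraries lay above the media libraries without overlap, but the difference did not pass (0.17, interval 0.00 to 0.33, adjusted p = 1). Media against naive cells did not pass either (-0.16, interval -0.33 to 0.02, adjusted p = 0.116), although with all 12 libraries in a single fit it did (-0.22, adjusted p = 0.0174).

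Ctsw was the most abundant of these genes in naive cells, also per exon length, with 202 ± 12.2 FPKM. Its libraries had 364, 373 and 407.5 CPM in naive cells, 185, 172.5 and 192 in media, 181, 172 and 186 in bovine collagen and 230.2, 242 and 253 in rat tail collagen. Naive libraries were highest, rat tail libraries next, and media and bovine collagen overlapped below them. Media was 1.99-fold below naive cells (log2 -0.99 ± 0.08, adjusted p = 6.27e-06). Rat tail collagen was 1.31-fold above media (0.39 ± 0.07, adjusted p = 5.31e-04) and 1.34-fold above bovine collagen (0.42 ± 0.07, adjusted p = 3.49e-04). With an offset per library for GC content and exon length, Ctsw (54.6% GC) was at -0.0196 against media (adjusted p = 0.827) and at 0.0096 against bovine collagen (adjusted p = 0.918), so the difference between rat tail and the other activated groups depends on this choice. Fibp, which overlaps Ctsw on the opposite strand in 9 of its 1887 exon bases, rose from 15.5 ± 1.47 CPM in media to 22.7 ± 2.98 CPM with rat tail collagen (0.54, adjusted p = 0.00117).

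Serpinb9, the gene of the granzyme B inhibitor, was at 25.1, 22.2 and 20.4 CPM in naive libraries, 44.0, 33.9 and 29.0 in media, 41.6, 34.1 and 27.6 in bovine collagen and 23.6, 15.2 and 9.51 in rat tail collagen. Media and bovine collagen overlapped at the top, and rat tail libraries overlapped with naive libraries below them. It rose 1.65-fold from naive cells to media (log2 0.72 ± 0.15, adjusted p = 0.00248). In rat tail collagen it was 2.23-fold below media (-1.16 ± 0.30, adjusted p = 0.00884) and 2.15-fold below bovine collagen (-1.10 ± 0.30, adjusted p = 0.0122). The call against media was lost without media 1 (-0.996, adjusted p = 0.0538) and the call against bovine collagen without bovine collagen 1 (-0.96, adjusted p = 0.0599). Rat tail collagen did not pass against naive cells (-0.48, interval -1.25 to 0.28, adjusted p = 0.210) but did without rat tail collagen 1 (-0.83, adjusted p = 0.00982). Granzyme B and its inhibitor thus moved in opposite directions between media and rat tail collagen. The ratio of Gzmb to Serpinb9 FPKM was 28.1, 27.6 and 19.9 in media, 36.0, 33.2 and 20.95 in bovine collagen, and 88.2, 123 and 285 in rat tail collagen, where every library lay above those of the other groups.

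**Figure D3:**
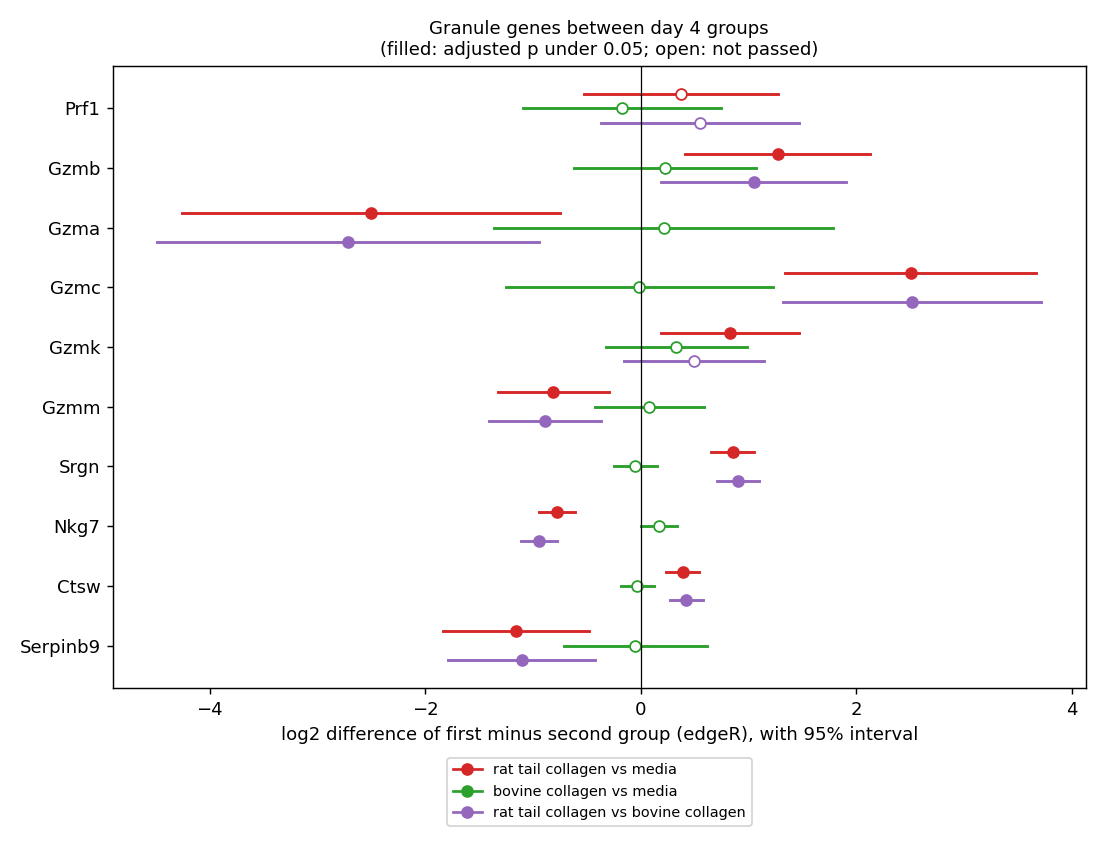
Log2 difference with its 95% interval (horizontal axis) of each gene between the 3 groups of day 4, filled where the adjusted p is under 0.05. Rat tail collagen differs from media in 9 of the 10 genes, 5 to the right of 0 and 4 to the left, and all bovine collagen points (green) are open.

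The comparison of bovine collagen with media addressed the effect of holding the cells in the other collagen, again for 24 h. The differences of the 10 genes lay between -0.17 for Prf1 and 0.33 for Gzmk on the log2 scale, and none passed, with adjusted p = 1 for each in edgeR. Nkg7 was the only gene of the 10 with an unadjusted p under 0.05 in edgeR, and DESeq2 and limma-voom also called 0 of the 10. The 95% intervals were narrow for Ctsw (-0.18 to 0.12) and Srgn (-0.25 to 0.15). They were wide for Gzmb (-0.62 to 1.07), Gzmc (-1.25 to 1.22) and Gzma (-1.37 to 1.79). In both media and bovine collagen, library 1 had the highest and library 3 the lowest value of 6 genes, Prf1, Gzmb, Gzma, Gzmc, Gzmk and Serpinb9. The same order held for 5 genes in rat tail collagen, Prf1, Gzmc, Gzmm, Srgn and Serpinb9, and for 1 in naive cells, Serpinb9. The labels do not say whether a replicate number marks the same mice.

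**Figure D4:**
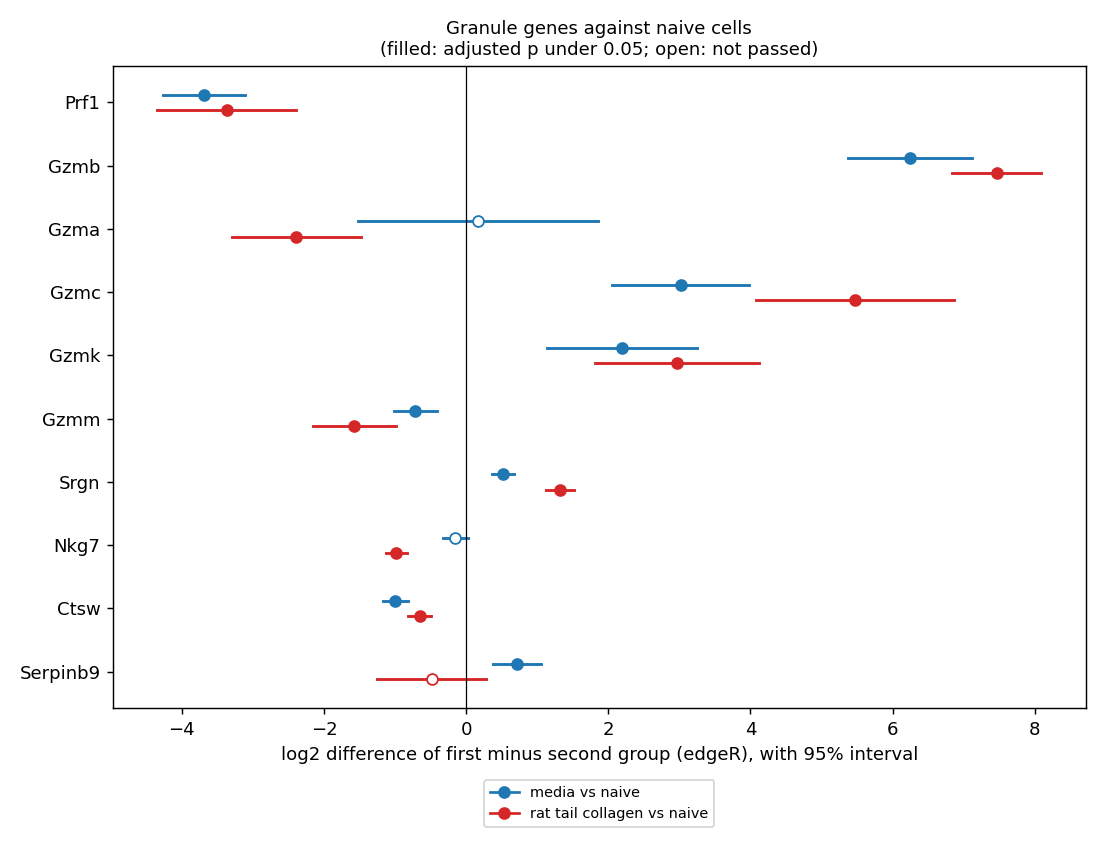
Log2 difference with its 95% interval (horizontal axis) of each gene in media and in rat tail collagen against naive cells, filled where the adjusted p is under 0.05. Prf1 lies near -3.7 and -3.4, Gzmb near 6.2 and 7.5, and Gzma passes only for rat tail collagen, at -2.39.

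Genes that make, carry or release granules were read from lists written from general knowledge. Of 20 genes of granule protein maturation and storage, 8 were higher and 5 lower in rat tail collagen than in media. The median was 0.07, and 29.7% and 28.7% of all genes were higher and lower. Cd63, a tetraspanin of granule and lysosome membranes, rose from 0.165 ± 0.0815 to 4.97 ± 0.570 CPM (log2 4.86, adjusted p = 5.44e-07). Chst12, a sulfotransferase that acts on chondroitin chains, the kind serglycin carries, rose from 31.5 ± 3.29 to 87.4 ± 10.8 CPM (1.46), and the lysosomal nucleoside transporter gene Slc29a3 from 34.5 ± 2.30 to 84.1 ± 3.71 CPM (1.28). Cst7, which encodes cystatin F, an inhibitor of the proteases that activate granzymes, fell from 81.5 ± 14.5 to 18.1 ± 2.67 CPM (-2.18, adjusted p = 2.57e-07). Gnptab, needed for the mannose phosphate tag that sorts enzymes to lysosomes, was at -1.37, and Csgalnact2, a starter of chondroitin chains, at -0.88. Ctsc, the protease that activates granzymes, fell from 64.8 ± 3.98 to 43.4 ± 4.79 CPM (-0.59, adjusted p = 1.35e-04), and is named after its values were seen.

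Transport and release genes went both ways in rat tail collagen: 10 of 25 tested were higher and 9 lower than in media, with a median of 0.03, beside 29.7% higher and 28.7% lower of all genes. Those higher with the smallest adjusted p were Stxbp2, the binding partner of the release protein syntaxin 11 (110.2 ± 3.89 to 189 ± 1.49 CPM, log2 0.77), the tetraspanin gene Cd9 (1.90) and Lyst, a regulator of lysosome size (273 ± 32.7 to 549 ± 17.8 CPM, 0.99). Rab27a, the GTPase that docks granules at the membrane, fell from 114 ± 4.65 to 65.0 ± 3.64 CPM (-0.82, adjusted p = 1.50e-06). The calcium sensor gene Stim1 (-0.66) and the priming factor gene Unc13d (-0.38) also fell. Among 9 protease inhibitor genes tested 2 were higher and 4 lower, against the same shares of all genes, with a median of -0.54. Cst7 belongs to this list too. Serpinb6b fell from 103.5 ± 36.6 to 20.6 ± 10.4 CPM (-2.34), and Serpinb1a, an inhibitor of neutrophil-type proteases, from 10.9 ± 2.44 to 0.962 ± 0.433 CPM (-3.50), while the cystatins Cstb (0.95) and Cst3 (0.32) rose. Cst3 was lost without any of 4 libraries: media 2, media 3, rat tail collagen 2 and rat tail collagen 3 (adjusted p = 0.115, 0.109, 0.0576 and 0.0882). With GC and length offsets it was at -0.10 and did not pass.

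**Figure D5:**
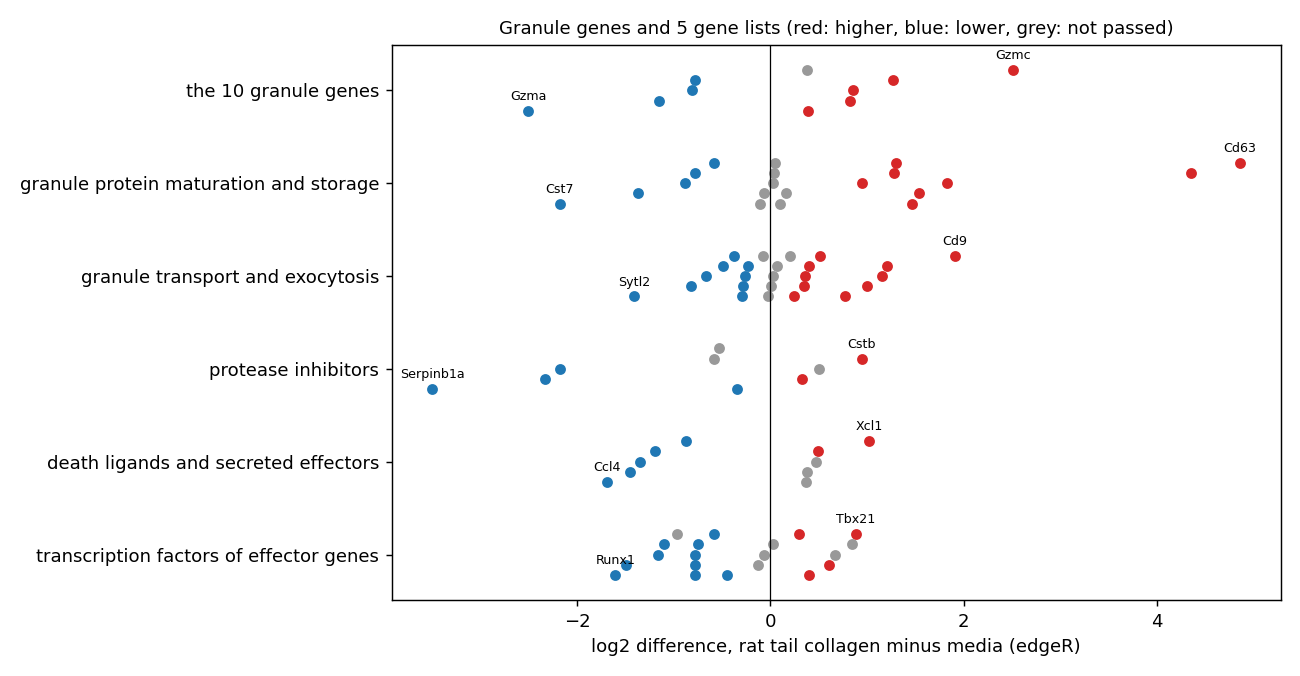
Log2 difference between rat tail collagen and media (horizontal axis) for the 10 granule genes and the tested genes of 5 lists, each point a gene, with the lowest and highest gene of each row named. Every row holds genes on both sides of 0, from Serpinb1a at -3.50 to Cd63 at 4.86.

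Of 10 other killing and secreted molecules 5 fell and 2 rose in this comparison, with a median of -0.25, where 28.7% of all genes fell and 29.7% rose. Ltb, a lymphotoxin chain, fell from 264 ± 28.2 to 97.3 ± 7.39 CPM (-1.45), Tnf was at -0.87 and Tnfsf10, the death ligand TRAIL, at -1.19. The chemokine gene Xcl1 (1.02) and the lymphotoxin gene Lta (0.49) rose, and Lta did not pass with GC and length offsets (0.11, adjusted p = 0.360). Transcription factors known to act on effector genes were higher in 4 and lower in 10 of 20, with a median of -0.52, beside the same 29.7% and 28.7% of all genes. Tbx21, which encodes T-bet, rose from 51.3 ± 8.44 to 95.01 ± 8.10 CPM (0.88, adjusted p = 1.29e-04). Runx3 (0.40) and Stat5a (0.60) rose as well. With GC and length offsets Tbx21 was at 0.16 (adjusted p = 0.237), Runx3 at -0.14 (adjusted p = 0.181) and Stat5a at -0.078 (adjusted p = 0.405), so these calls depend on the offsets. Irf4 (-0.78), Runx1 (-1.60) and Id2 (-1.10), all regulators of T cell differentiation, fell.

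Between rat tail and bovine collagen, genes of the same lists were called in similar numbers as against media, with the rat tail libraries shared. Maturation and storage genes were higher in 8 and lower in 5 of 20, transport genes in 11 and 8 of 25, inhibitors in 2 and 3 of 9, secreted effectors in 2 and 5 of 10 and transcription factors in 5 and 9 of 20, where 28.4% and 26.4% of all genes were called. Cd63 was at 5.75, Slc29a3 at 1.32, Chst12 at 1.34, Cst7 at -2.10, Gnptab at -1.42 and Csgalnact2 at -0.87. Cd9 (1.78), Stxbp2 (0.64) and Lyst (1.03) were higher, and Rab27a (-0.76), Stim1 (-0.71) and the synaptotagmin-like Sytl3 (-0.53) lower. Serpinb1a was at -3.31 and Serpinb6b at -2.32, against 0.99 for Cstb and 0.48 for Cst3. Xcl1 was at 1.17, Lta at 0.61, Ltb at -1.38, Tnfsf10 at -1.11 and the chemokine gene Ccl4 at -1.52. The transcription factors named were Stat5a (0.72), Tbx21 (0.90), Runx3 (0.29), Irf4 (-0.98), Runx1 (-1.44) and Foxo1 (-0.85), and with GC and length offsets none of Cst3 (0.055), Lta (0.22), Tbx21 (0.21) and Runx3 (-0.21, adjusted p = 0.0539) passed. No gene of these lists passed between bovine collagen and media, where 0.0206% of all genes did.

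With activation, in media against naive cells, 7 of 20 maturation and storage genes rose and 6 fell. Of all genes 31.6% rose and 29.2% fell, and the counts of the 5 lists are read beside these shares. Gnptab (1.18), Chst12 (1.06) and the lysosome membrane gene Lamp1 (0.63) rose, and the xylosyltransferase genes Xylt1 (-1.69) and Xylt2 (-0.82), which start the sugar chains of proteoglycans, fell with the cathepsin gene Ctsh (-5.48). Of 26 transport genes 9 rose and 7 fell. Stx11, the gene of syntaxin 11, rose from 5.04 ± 1.09 to 18.6 ± 2.88 CPM (1.95), with Sytl1 at 0.86 and the adaptor gene Ap3b1 at 0.58, and Orai1 (-1.22), Stx4a (-0.75) and Vamp2 (-1.57) were lower. All 5 protease inhibitors that passed, of 9 tested, rose, led by Serpinb6a (12.8 ± 1.52 to 72.6 ± 11.5 CPM, 2.57), Serpinb1a (2.33) and Serpina3f (3.10). Fasl, the death ligand of the Fas receptor, rose from 3.33 ± 1.09 to 15.8 ± 4.22 CPM (2.31), and Tnf (1.30) and Lta (0.47) were also higher, while Ifng (-1.63), Tnfsf10 (-0.56) and Ccl3 (-1.81) were among 7 of 10 that fell. Of the 20 transcription factors 8 rose and 6 fell, with Irf4 at 3.62, Bhlhe40 at 2.69, Stat4 at 0.74, Runx1 at -1.56, Zfp683 at -0.86 and Notch1 at -0.48.

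Rat tail collagen was set against naive cells to place both ends of the series side by side. Chst12 (2.47), Slc29a3 (1.25), Stxbp2 (1.08), Cd9 (2.78), Serpinb6a (2.18), Cstb (1.14), Lta (0.91), Fasl (2.73), Irf4 (2.78) and Runx3 (0.92) were higher. Xylt2 (-1.64), Cst7 (-1.95), Stim1 (-0.86), Stx4a (-0.80), Serpinb1a (-1.22), Ltb (-1.75), Ifng (-3.02), Runx1 (-3.21) and Foxo1 (-1.14) were lower. The lists had 11 higher and 5 lower of 20 in maturation and storage, 14 and 11 of 26 in transport, 4 and 2 of 9 in inhibitors, 3 and 5 of 10 in secreted effectors and 7 and 7 of 20 in transcription factors, against 36.5% and 35.4% of all genes.

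The genes whose levels ran most alike to 3 of the members over the 12 libraries were picked by Pearson r of log2 CPM among 10506 expressed genes, which share the same libraries and groups. For Gzmb these were Cpped1 (r = 0.997), Fah (0.995), Tbc1d7 (0.995), the inhibitory receptor gene Lag3 (0.994) and the laminin gene Lamc1 (0.994). Lag3 rose from 2.29 CPM in naive cells to 48.6 in media and 73.2 in rat tail collagen on average. For Prf1 they were Dtx1 (0.987), Oasl1 (0.981), Ring1 (0.979), Ptpn12 (0.979) and Cebpz (0.977). Dtx1, a ubiquitin ligase gene of the Notch pathway, was at 247 CPM in naive cells and at 0.963 in media. For Serpinb9 they were the integrin gene Itgax (0.979), Nsmaf (0.966), Ly6c2 (0.955), Tpm4 (0.955) and Ube2e1 (0.949), and Itgax was at 9.28 CPM in naive cells, 22.5 in media and 5.16 in rat tail collagen. Ranked by Spearman rho, the 5 nearest genes shared 0 with the first set for Gzmb, 1 for Prf1 and 1 for Serpinb9.

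Markers of other cells moved between the same groups as the granule genes. In media against naive cells 7 of the 9 natural killer and innate-like markers fell and 0 rose. In rat tail collagen against media Klrb1b, Klrb1c and Fcer1g rose and Trdc fell, of 7 tested, and Ncr1 was at 0.150, 0.0503 and 0 CPM in the rat tail libraries. The 6 myeloid markers summed to 34.4 to 125.7 CPM in naive libraries, 9.11 to 9.94 in media, 9.63 to 10.4 in bovine collagen and 17.5 to 24.7 in rat tail collagen. Cd68, a lysosomal protein of macrophages, made up most of the rat tail sum and rose from 6.23 to 18.8 CPM between media and rat tail collagen (log2 1.58, adjusted p = 4.12e-05). Cd14 rose too (0.0883 to 0.902 CPM, 3.25), while Itgam was at 2.98 and 1.08 CPM (-1.49, adjusted p = 0.0107). Lyz2, Csf1r and Adgre1 were at 35.1, 19.7 and 4.49 CPM in naive cells and at 0.0736, 0.0135 and 0.0424 CPM in media. In rat tail collagen they were at 0.00952, 0.0112 and 0.212 CPM and were not tested against media. The 6 B cell markers summed to 456 to 516 CPM in naive libraries, 897 to 1019 in media, 899 to 1074 in bovine collagen and 721 to 1045 in rat tail collagen. Of the B cell markers Cd74 (1.79) and Cd79a (1.06) were higher and Cd79b (-0.81) lower in rat tail collagen than in media. The 3 CD4 T cell markers summed to 10.3 to 22.6 CPM in naive libraries and 25.1 to 37.7 in media. Bovine collagen had 29.1 to 36.0 CPM and rat tail collagen 59.4 to 70.8 CPM. Most of the rat tail sum was Zbtb7b, which was higher there than in media (1.04, adjusted p = 4.73e-04). Neither Cd4 itself (-0.27, adjusted p = 0.332) nor Foxp3 (2.245, adjusted p = 0.132) passed in that comparison. Mast cell and basophil markers summed to 2.05 to 7.27 CPM in naive libraries, 0.471 to 1.20 CPM in media and bovine collagen and at most 0.0168 CPM in rat tail collagen, where 6 of 7 had 0 counts. Neutrophil granule markers summed to 0.193 to 5.28 CPM in naive libraries, 0.0397 to 0.153 CPM in media and bovine collagen and 0.371 to 0.658 CPM in rat tail collagen. The 4 stromal markers summed to 148 to 175 CPM in naive libraries and 124 to 147 in media and bovine collagen. Their sum in rat tail collagen was 72.3 to 78.6 CPM. Most of the stromal sum was Pecam1, which was lower in rat tail collagen than in media (log2 -0.97). Col1a1 (3.77, adjusted p = 7.76e-08) and Fn1 (3.37, adjusted p = 2.62e-06) went the other way, and Col3a1 was not tested. The 5 platelet and red cell markers summed to 5.62 to 18.3 CPM in naive libraries and 3.07 to 5.91 CPM in the others. Between media and rat tail collagen Alas2 went from 0 to 1.44 CPM (8.87, adjusted p = 7.49e-05). Pf4 went from 0.787 to 0.0714 CPM (-3.11, adjusted p = 0.0125), Itga2b and Ppbp did not pass, and Hba-a1 was not tested. The part of such cells in the granule gene differences was not tested.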

How the data were processed

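The deposited table holds unnormalized read counts for each gene symbol in the 12 libraries, and it was used as the authors left it. Per the submitters' processing notes, reads were handled with HISAT2, featureCounts, SAMtools, Picard, FastQC and MultiQC, and the builds named are mm10 and GRCm38. Their versions, the strand setting and the annotation were not given in the sources used here. Groups came from the sample titles.

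R 4.3.3 was used with edgeR 4.0.16 for the reported tests, and with DESeq2 1.42.0 and limma 3.58.1 for alternatives. The filter on low counts was filterByExpr given the groups, scaling used TMM factors, and the robust quasi-likelihood F test of edgeR was applied to each gene. Adjustment followed Benjamini and Hochberg across every gene of a fit. The 9 libraries of day 4 shared a fit of 19392 genes (common coefficient of variation 12.3%), and media (18610 genes) and rat tail collagen (19449 genes) were each fitted with naive cells on 6 libraries. Standard errors are the log2 difference over the root of F, and 95% intervals use the test's degrees of freedom. No pair of libraries of a group agreed within sampling noise: chi-square per degree of freedom ran from 12.4 to 182. The pipeline was tested on simulated data.

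The 10 genes, the lists and the alternatives were chosen with earlier results of these data known. Named list genes are, per list and direction, the up to 3 (2 for bovine collagen against media and for rat tail collagen against naive) with the smallest adjusted p under 0.05. Most alike genes needed a mean of 5 CPM in a group and no clone or predicted name. Gene positions, exon lengths and transcripts come from GENCODE M21 on GRCm38, and promoters from RefSeq on GRCm38.p6. Alternatives were DESeq2, limma-voom, library totals, RLE factors, other filters on low counts, other libraries in the fit, a replicate block, no robust estimation, removal of ribosomal RNA genes, GC and length offsets (known for 97.4% of genes tested) and leaving out libraries. Reads were not analysed here.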

Additional observations from a re-analysis of the deposited data

How the results depend on the processing

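The number of the 10 genes called stayed within 1.5 times of the reported count under every alternative run. Leaving out each library gave 7 to 9 of 10 genes in rat tail collagen against media, 6 to 8 against bovine collagen, 9 to 10 against naive cells, 8 in media against naive cells and 0 in bovine collagen against media. Over all genes the same fits called 9986 to 11723 in rat tail collagen against media, beside 11319 with every library. Against bovine collagen they called 9346 to 11471, beside 10617, and against naive cells 12891 to 14053, beside 13988. In media against naive cells they called 10136 to 11310, beside 11324. The fit without the 3 libraries of highest ribosomal RNA share leaves 1 rat tail library, so its count of calls is not given. Over all comparisons, 970 of 1010 recomputed values of the 10 genes kept their direction where called and their side of the threshold, 32 lost the call, 7 gained it and 1 reversed. With GC and length offsets Ctsw turned to -0.0196, Cst3 to -0.10, Stat5a to -0.078 and Runx3 to -0.14 in rat tail collagen against media, and Runx3 to -0.21 against bovine collagen. None of these passed, and the cause was not tested. With the offsets Gzmb was at 0.96 against bovine collagen (adjusted p = 0.0739), and with library totals Serpinb9 was at -0.96 there (adjusted p = 0.0582). Without the 3 libraries of highest ribosomal RNA share, and so with 1 rat tail library, Gzma was at -2.12 against media and -2.25 against bovine collagen. With all 12 libraries fitted together Serpinb9 did not pass in media against naive cells (0.66, adjusted p = 0.0549). Over all genes, bovine collagen against media had 4 calls, and 22 with DESeq2, 39 with no filter on low counts, 9 with library totals, 7 with the replicate block, 2 with only its 6 libraries, 1 without the 3 high ribosomal RNA libraries and 2 to 5 when each library was left out.

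Replicate numbers are shared by the groups. Deviations of same-numbered libraries from their group means correlated by 0.485, 0.0673 and 0.565 between bovine collagen and media. Bovine collagen 1 with media 3 and bovine collagen 3 with media 1 were at -0.49 and -0.51. Same-numbered values were 0.0805, 0.0554 and 0.118 between rat tail collagen and media and 0.0840, -0.0182 and 0.0980 between rat tail and bovine collagen. Against naive cells they were -0.0415, 0.109 and -0.0542 for media and 0.152, 0.0475 and 0.137 for rat tail collagen. Libraries 1 and 3 thus varied alike between bovine collagen and media, and less so elsewhere. The labels do not say what the numbers mark, and the reported tests did not pair them. The intervals of bovine collagen against media therefore leave this likeness out. With the replicate block 9 of the 10 genes were called in rat tail collagen against media, 10 against bovine collagen, 10 against naive cells, 8 in media against naive cells and 0 in bovine collagen against media. Over all genes the block gave 12070, 11402, 14321, 10407 and 7 calls in that order. Without it there were 11319, 10617, 13988, 11324 and 4. The members gained were Gzmk (0.49, adjusted p = 0.00796) and Prf1 (0.46, adjusted p = 0.0211) against bovine collagen and Serpinb9 (-0.56, adjusted p = 0.0496) against naive cells.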

Other observations

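Esm1, which encodes the secreted proteoglycan endocan, overlaps the Gzmk gene on the opposite strand on chromosome 13 and shares 0 exon bases with it. It was picked after its values were seen. Esm1 was at 0.0525, 0.0525 and 0.0965 CPM in naive libraries, 3.13, 2.45 and 0.984 CPM in media, 4.55, 3.09 and 1.22 CPM in bovine collagen and 0.958, 0.888 and 0.457 CPM in rat tail collagen. In edgeR's quasi-likelihood test it was lower in rat tail collagen than in media (log2 -1.50, adjusted p = 0.0281) and higher in media than in naive cells (5.02, adjusted p = 6.43e-05). Of these 3 genes, Gzma and Esm1 were thus lower in rat tail collagen than in media, and Gzmk was higher there.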
